A study of Mus musculus with 6 samples.

Results

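The genes described are 30 that encode enzymes and regulators of cholesterol synthesis and of fatty acid synthesis, chosen by name and not by measured values. Each gene was represented by the probe set that the platform annotation gives exactly 1 gene symbol and that had the highest mean over 6 arrays. Such a probe set was found for 29 of the 30, and all 29 lay above the signal of 8.51 required for testing, among 12875 genes tested in all. Of the 29, 19 belonged to the sterol branch and 10 to the fatty acid branch. Acat2, which encodes a cytosolic thiolase at the head of the sterol pathway, was not analysed here. RNA came from primary microglial cultures, microglia being the resident macrophages of the brain, and was measured on single-colour oligonucleotide arrays, with 3 Dap12-deficient and 3 wild-type samples and 1 array for each. The titles of 4 samples hold a pair of numbers whose meaning is not stated, and whether these are pools of cultures is not known. Samples are called cultures here. Dap12 is the adaptor, encoded by Tyrobp, through which Trem2 and other myeloid receptors signal. The deficient allele, the strain, the age and sex of the animals and the way the cultures were prepared are not given in the labels used here. Separate animals behind the cultures are not stated, and p-values therefore measure only how far these cultures varied, which may be technical.

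Cholesterol is built from acetyl-CoA through mevalonate to squalene, which is closed to lanosterol and trimmed to cholesterol by a series of ring enzymes. Fatty acids are built from the same acetyl-CoA through malonyl-CoA and are then elongated and desaturated. Transcription of both routes is driven by the sterol regulatory element binding proteins, of which the product of Srebf2 acts mainly on sterol genes and that of Srebf1 mainly on fatty acid genes, and Insig1 holds their precursors in the endoplasmic reticulum when sterols are plentiful. In the brain, cholesterol is made locally, and myelin-forming oligodendrocytes are major producers of it, so such genes in a microglial culture can be transcribed in more than 1 cell type.

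The labels were checked on Tyrobp, whose signal was 5396 to 7271 on wild-type and 96.2 to 125 on Dap12-deficient arrays. Values are linear signals that had been scaled to a trimmed mean of 100 on each array. Median signals were 11.9 to 14.0 on wild-type and 14.5 to 16.4 on Dap12-deficient arrays, highest on Dap12-deficient array 1. Microglial markers (9 of 10 measured, such as Csf1r and P2ry12) summed to 19544 to 27632 on wild-type and 16076 to 24301 on Dap12-deficient arrays, so the labelled cell type was represented in both groups. RNA of other brain cells, such as oligodendrocytes and astrocytes, was present too. Oligodendrocyte markers (9 of 10 measured, none at 0) summed to 5516 to 8785 on wild-type arrays and to 6648, 2263 and 1539 on Dap12-deficient arrays 1, 2 and 3. Astrocyte markers (8 of 8 measured, none at 0) summed to 505 to 940 and to 451 to 1408, the latter on Dap12-deficient array 3. Markers of oligodendrocyte precursors (4 of 4 measured) summed to 2183 to 2396 and to 2080 to 2300. Such sums mostly follow the brightest genes of a list. By log2 difference, 8 of 9 microglial markers were lower in Dap12-deficient cultures (median -0.29), where 54.8% of all tested genes were. Of astrocyte markers, 7 of 8 were higher (median 0.40). Among precursor markers 2 were higher and 2 lower, and of the latter Cspg4 was at 162 to 174 against 43.3 to 55.4 (limma adjusted p = 0.0613). Neuron markers (6 of 6 measured) summed to 362 to 471 and to 280 to 370. Fibroblast markers (5 of 5) summed to 82.5 to 175 and to 91.2 to 118, and endothelial markers (4 of 4) to 55.9 to 83.0 and to 57.6 to 81.9. Of these last lists Lum, Pecam1 and Cldn5 were too dim to be tested. Their sums therefore do not show that fibroblast or endothelial RNA was present. The Y-linked gene Eif2s3y was at 571 to 649 on wild-type and 64.5 to 176 on Dap12-deficient arrays, so the sex make-up of the cultures and the genotype cannot be told apart by group alone. In RNA of whole cultures, fewer cells of a type and less RNA per cell cannot be told apart.

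None of the 29 synthesis genes changed between Dap12-deficient and wild-type cultures by the test used, in either branch. Pmvk, Hsd17b7 and Fads1 had the lowest estimates in Dap12-deficient cultures and Insig1 the highest, each with an interval that included 0. The 29 log2 differences, on log2(signal + 16), ran from -0.52 for Hsd17b7 to 0.52 for Insig1, and 24 of 29 were smaller than 0.3 in size (82.8%, against 69.8% of all tested genes). For 25 of the 29 the 95% interval of the difference lay inside -1 to 1, and thus left out a doubling and its reverse on that scale. The same held for 86.7% of all tested genes.

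By limma with Benjamini-Hochberg adjustment over 27022 probe sets, 0 of 29 members passed an adjusted p of 0.05, where 2 of all tested genes did (0.0155%, or 0.0074% of probe sets). The smallest adjusted p among members was 0.509, for Pmvk. At an unadjusted p under 0.05 the count was again 0 of 29, against 9.63% of all tested genes. Arrays of the groups did not overlap for 1 member, Acaca, which was lower in Dap12-deficient cultures, against a background of 8.85% of genes lower and 7.54% higher without overlap. These shares are at or below the background. In the sterol branch 14 of 19 members had a lower mean log2 signal in Dap12-deficient cultures and in the fatty acid branch 8 of 10, beside 54.8% of all tested genes. The median log2 difference was -0.06 for the sterol branch and -0.17 for the fatty acid branch, and -0.03 over all genes. Scaling arrays to a common median moved the median of all genes to -0.23 and those of the branches to -0.31 and -0.40, or -0.08 and -0.17 relative to all genes. Relative to all genes, the sterol median was -0.03 as deposited but 0.02 after quantile normalization, while the fatty acid median stayed below 0 (-0.14 and -0.09).

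**Figure D1:**
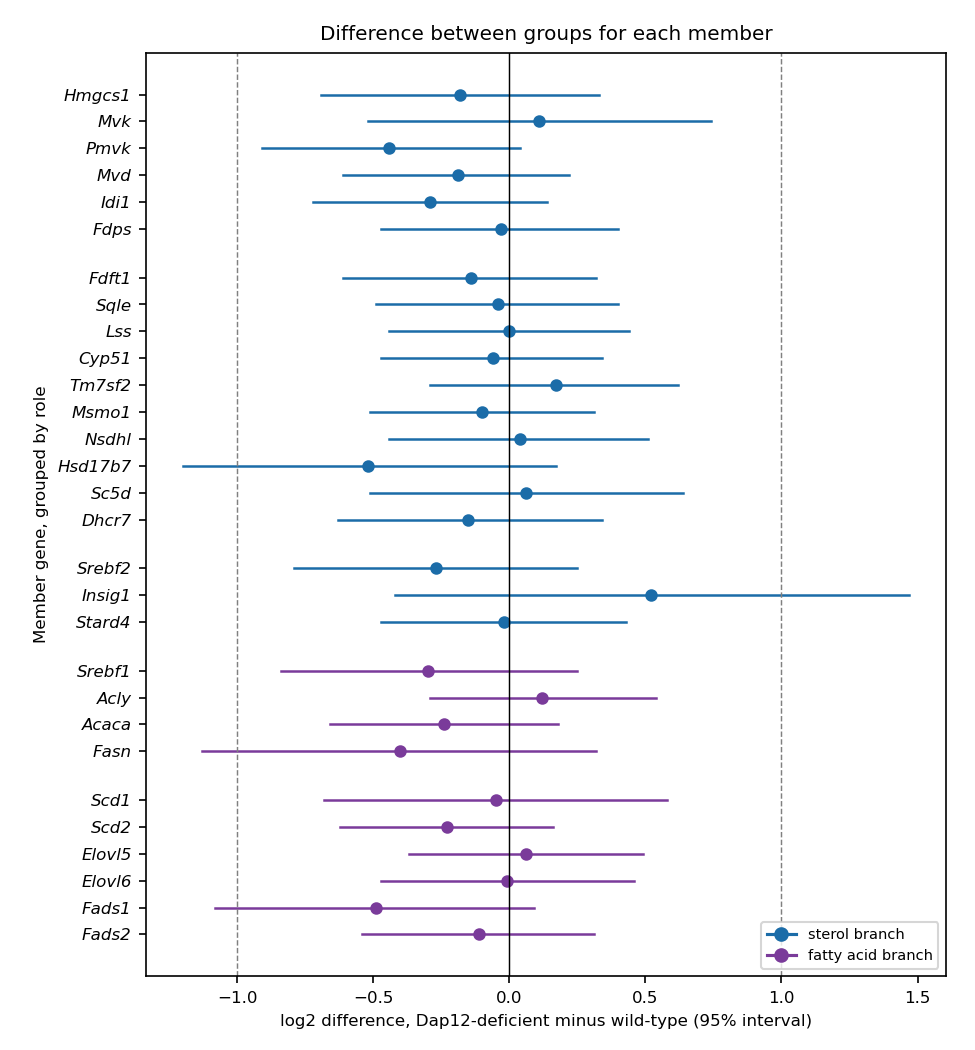
Log2 difference (Dap12-deficient minus wild-type, on log2 of signal + 16) of each of 29 members on the horizontal axis, with points for the estimate and bars for the 95% limma interval, 3 arrays per group, sterol genes in blue and fatty acid genes in purple. All 29 intervals include 0, and 25 lie between the dashed lines at -1 and 1.

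The first steps, from Hmgcs1 to Fdps, make the isoprenoid units of cholesterol. Hmgcs1, the cytosolic synthase that joins acetoacetyl-CoA and acetyl-CoA, had a wild-type level of 4143 ± 1122 (SD, n = 3). Its Dap12-deficient level was 3603 ± 634 (SD, n = 3), with overlapping arrays and a log2 difference of -0.18 (SE 0.23). Pmvk, which phosphorylates phosphomevalonate, gave 209.5, 336 and 254 on the wild-type arrays, numbered 1, 2 and 3 throughout, against 186, 210.4 and 173 on the Dap12-deficient arrays in the same order. The groups met at 209.5 and 210.4, so that a single Dap12-deficient array reached the lowest wild-type array. Its log2 difference was -0.44 (SE 0.22, 95% interval -0.91 to 0.04, limma adjusted p = 0.509). Idi1, the isomerase that makes the reactive isoprene unit, gave 1616, 1865 and 2302 against 1784, 1517 and 1401. Array 1 of the Dap12-deficient group lay within the wild-type range and the other two below it, for a difference of -0.29 (SE 0.19, adjusted p = 0.623). The kinase gene Mvk differed by 0.11 (SE 0.28) and was the most scattered of this group, with 28.5 to 84.7 on Dap12-deficient arrays around a wild-type range of 41.4 to 54.2. The decarboxylase gene Mvd, at 100 to 119 and 84.3 to 103, differed by -0.19 (SE 0.19), and the farnesyl diphosphate synthase gene Fdps, at 156 to 164 and 126 to 178, by -0.03 (SE 0.20).

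The start region of Hmgcs1 is shown because it was the only member, of 23 with a RefSeq promoter, whose window held the string TCACNCCAC. Windows were 250 bases before to 50 after the annotated start in GRCm38.p6. Both strands were searched for TCACNCCAC (a form of the sterol regulatory element), the box CCAAT, the GC box GGGCGG and the E-box CACGTG. Other forms of the sterol regulatory element were not searched, so windows without this string may hold them. In the Hmgcs1 window, chr13:119690101-119690400 on the plus strand, capitals mark TCACCCCAC, which begins 137 bases before the start and overlaps none of the other motifs.
Hmgcs1: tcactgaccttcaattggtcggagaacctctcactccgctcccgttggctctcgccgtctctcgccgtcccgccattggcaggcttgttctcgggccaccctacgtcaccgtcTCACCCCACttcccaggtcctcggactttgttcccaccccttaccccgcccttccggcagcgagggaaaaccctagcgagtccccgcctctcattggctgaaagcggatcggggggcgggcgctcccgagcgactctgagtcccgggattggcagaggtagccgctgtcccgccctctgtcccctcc
TCACNCCAC was held by 1 of 23 members (4.35%) and by 1.24% of all 32851 promoters. CCAAT was held by 19 of 23 members and 37.4% of promoters, GGGCGG by 18 of 23 and 35.7%, and CACGTG by 5 of 23 (Dhcr7, Elovl5, Hsd17b7, Insig1 and Sc5d) and 7.15%. Some genes have several promoters, so the share of all 27025 genes with a match was slightly larger than that of promoters, at 41.1% for CCAAT and 8.09% for CACGTG. A match is a description of letters in this window and not of binding.

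For squalene formation and the ring steps the estimates lay mostly near 0. Of 10 genes, 9 differed by less than 0.3 and their median was -0.05. Fdft1, which makes squalene, was at 598 to 828 in wild-type and 536 to 758 in Dap12-deficient cultures, a log2 difference of -0.14 (SE 0.21). Sqle, the squalene epoxidase and a rate-limiting enzyme, had levels of 780 ± 150 (SD, n = 3) without the deficiency and 748 ± 54.5 (SD, n = 3) with it, a difference of -0.04 (SE 0.20, 95% interval -0.49 to 0.40). Lss, the cyclase that closes squalene into lanosterol, was at 165 in both groups by its brightest probe set. By its probe set 1426913_at the means were 166 in wild-type and 119 in Dap12-deficient cultures, with overlapping arrays. That difference was -0.41 (SE 0.23, limma adjusted p = 0.557). Cyp51, the lanosterol demethylase, differed by -0.06 (SE 0.18), and Msmo1, the methyl sterol oxidase, by -0.10 (SE 0.18), from means of 523 and 1043 in wild-type to 500 and 964. The dehydrogenase gene Nsdhl differed by 0.04 (SE 0.21), with 202 to 306 in wild-type and 238 to 309 in Dap12-deficient cultures.

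The widest difference among ring enzymes belonged to Hsd17b7, a sterol ketone reductase. Its arrays gave 630.5, 412 and 846 in wild-type against 591, 280 and 437 in Dap12-deficient cultures. Wild-type arrays differed more among themselves than the means of the groups did, and arrays 1 and 3 of the Dap12-deficient group lay inside the wild-type range. The log2 difference was -0.52 (SE 0.31, 95% interval -1.20 to 0.17, limma adjusted p = 0.586). Other tested probe sets of Hsd17b7 gave -0.20 (1448865_at, SE 0.22), 0.33 (1417871_at, SE 0.29) and -0.35 (1440057_at, SE 0.25). Tm7sf2, a reductase of the sterol ring, was 60, 55.3 and 56.6 in wild-type against 52.7, 86.7 and 63.1 in Dap12-deficient cultures, which held both the lowest and the highest array, with a difference of 0.17 (SE 0.21, adjusted p = 0.798). The last steps are run by Sc5d, a desaturase, and Dhcr7, which yields cholesterol. Dhcr7 was at 85.8 to 149 and 91.7 to 107, a difference of -0.15 (SE 0.22). Sc5d gave 354, 375 and 345 against 584, 304 and 294, so that Dap12-deficient array 1 lay above all wild-type arrays and arrays 2 and 3 below them. Its mean difference was 0.06 (SE 0.26), and without Dap12-deficient array 1 it was -0.25.

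Among sterol regulators and transport genes, array-to-array spread outweighed the difference between groups. Insig1 gave 203.5, 341 and 550 without the deficiency against 966, 415 and 295 with it. The highest of the 6 arrays was Dap12-deficient array 1, while arrays 2 and 3 lay among the wild-type arrays. Its log2 difference was 0.52 (SE 0.43, 95% interval -0.42 to 1.47, adjusted p = 0.682 by limma), the least precise of the 29, and 0.05 without array 1. Srebf2 gave 82, 59.2 and 93.9 against 66.7, 77.4 and 43.8, with only array 3 below the wild-type range and a difference of -0.27 (SE 0.23, adjusted p = 0.703). Stard4, a carrier of cholesterol between membranes, was at 140.5 to 141.6 in wild-type, against 156, 159 and 108 on Dap12-deficient arrays, above and below a narrow wild-type range, for a difference of -0.02 (SE 0.20). Insig1 and Sc5d are shown side by side because both were highest on Dap12-deficient array 1 and both windows held the E-box, in capitals below. The Insig1 window is chr5:28071162-28071461 on the plus strand and that of Sc5d is chr9:42264251-42264550 on the minus strand, printed 5′ to 3′ (RefSeq, GRCm38.p6).
Insig1: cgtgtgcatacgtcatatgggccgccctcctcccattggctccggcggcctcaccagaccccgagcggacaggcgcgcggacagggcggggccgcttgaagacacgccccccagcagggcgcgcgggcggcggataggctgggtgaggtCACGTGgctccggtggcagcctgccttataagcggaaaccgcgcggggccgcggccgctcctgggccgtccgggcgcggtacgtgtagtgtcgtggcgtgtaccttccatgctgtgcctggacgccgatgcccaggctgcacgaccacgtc
Sc5d: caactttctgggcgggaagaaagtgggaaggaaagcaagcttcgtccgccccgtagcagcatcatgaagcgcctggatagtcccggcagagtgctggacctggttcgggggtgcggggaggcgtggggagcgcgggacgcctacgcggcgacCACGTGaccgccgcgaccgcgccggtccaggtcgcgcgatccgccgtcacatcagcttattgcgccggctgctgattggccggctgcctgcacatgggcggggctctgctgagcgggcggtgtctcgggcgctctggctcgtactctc
The E-box began 101 bases before the start of Insig1 and 98 before that of Sc5d, and overlapped no other motif searched. Hsd17b7, Dhcr7 and Elovl5 also held it and were not highest on that array, and Lss, the third member highest there, did not hold it.

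**Figure D2:**
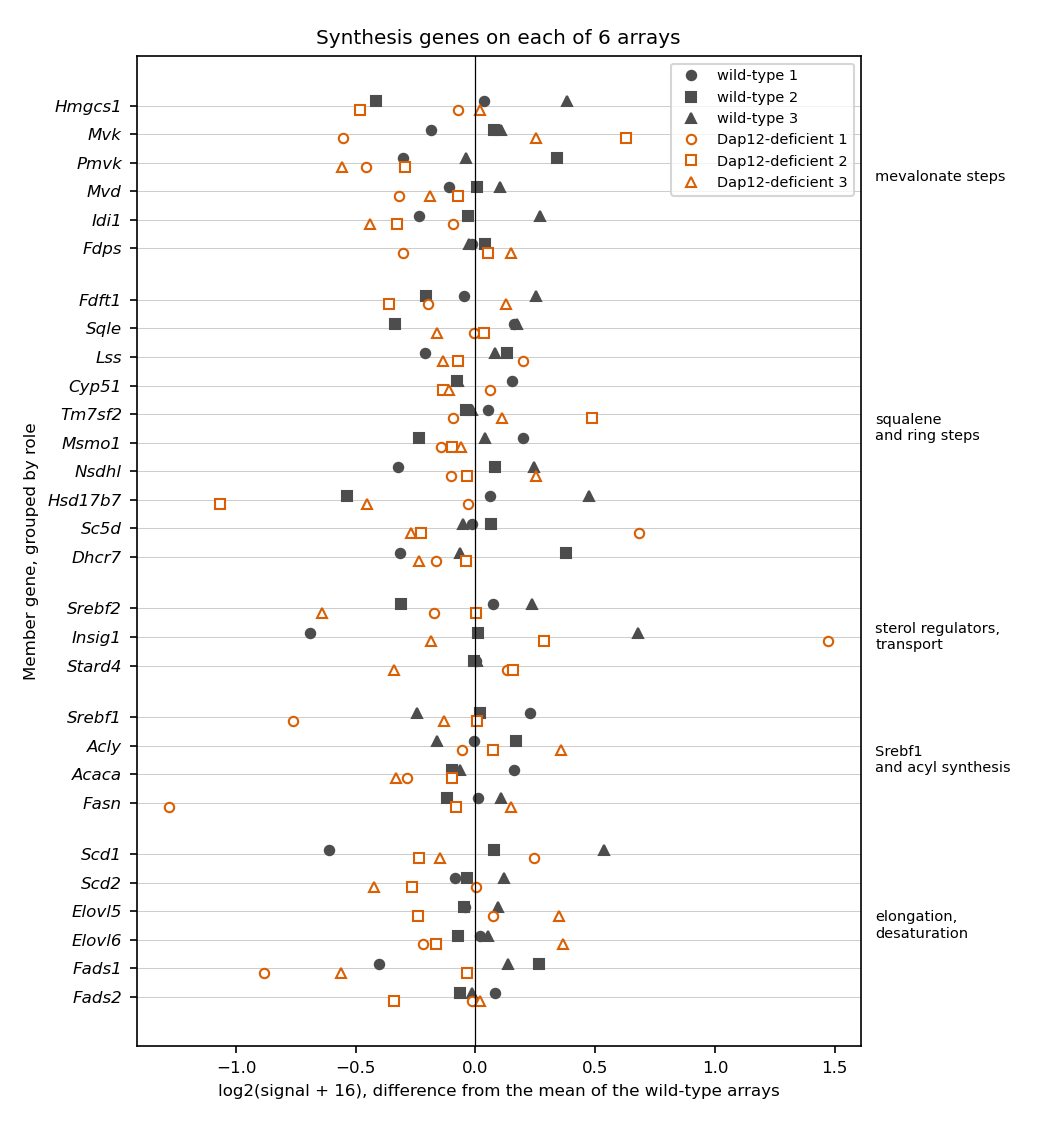
Difference of log2(signal + 16) from the mean of the wild-type arrays (horizontal axis) for 29 members on each of 6 arrays, with filled symbols for wild-type and open symbols for Dap12-deficient arrays 1 (circle), 2 (square) and 3 (triangle). Open symbols lie on both sides of 0 for most members, and the farthest are Insig1 (signal 966) and Fasn (142) on array 1 and Hsd17b7 (280) on array 2.

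Among Srebf1 and the genes that make the fatty acyl chain, Fasn and Srebf1 were low on Dap12-deficient array 1 alone, while Acaca and Acly were not. Fasn, the fatty acid synthase, gave 369.5, 335.5 and 396 in wild-type against 142, 345.5 and 408 in Dap12-deficient cultures. Arrays 2 and 3 of the Dap12-deficient group lay within or just above the wild-type range, and array 1 far below it. The log2 difference was -0.40 (SE 0.33, 95% interval -1.13 to 0.32, limma adjusted p = 0.681), and 0.04 without array 1. Srebf1, the transcription factor of this branch, gave 164, 140 and 114 against 74.9, 139 and 125, again with array 1 alone below the wild-type range, and differed by -0.30 (SE 0.24, adjusted p = 0.687). Without array 1 it differed by -0.06. Acaca, the carboxylase that makes malonyl-CoA, gave 160.9, 131.8 and 135.2 against 113.8, 131.7 and 109.6. Its groups did not overlap, but only by 131.7 against 131.8, and the log2 difference of -0.24 (SE 0.19, adjusted p = 0.675) was lower in 3 of 3 arrays. Acly, which supplies cytosolic acetyl-CoA from citrate, was at 1247 to 1574 and 1343 to 1793, a difference of 0.12 (SE 0.19).

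The Fasn window is shown as that of the member lowest on Dap12-deficient array 1 by the widest margin. It is chr11:120824498-120824797 on the minus strand (RefSeq, GRCm38.p6), with capitals at its 3 matches to CCAAT on either strand, of which 2 overlap each other. It held no match to the other 3 motifs.
Fasn: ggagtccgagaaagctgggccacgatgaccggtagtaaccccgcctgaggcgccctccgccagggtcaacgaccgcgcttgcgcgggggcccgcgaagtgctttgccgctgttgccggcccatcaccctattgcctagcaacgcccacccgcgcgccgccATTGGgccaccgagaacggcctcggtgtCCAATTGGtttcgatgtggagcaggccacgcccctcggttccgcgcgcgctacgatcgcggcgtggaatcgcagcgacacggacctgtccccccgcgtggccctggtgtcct

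Of 6 genes for enzymes that elongate and desaturate fatty acids, 5 were lower in Dap12-deficient cultures by their brightest probe sets. That is 83.3%, against 54.8% of all tested genes. Each of these 5 also had another tested probe set with a difference above 0. The highest were 0.22 for Fads1, 0.26 for Scd2, 0.40 for Elovl6, 0.45 for Fads2 and 0.20 for Scd1. A further probe set of Scd2, 1415823_at, gave -0.22. The median log2 difference of the 6 genes by their brightest probe sets was -0.08. Their mean log2 difference from wild-type was -0.13, -0.21 and -0.07 on Dap12-deficient arrays 1, 2 and 3. Wild-type arrays lay at -0.17, 0.02 and 0.15. Fads1, the delta-5 desaturase of polyunsaturated fatty acids, gave 307, 496 and 453 in wild-type against 215, 399.5 and 273 in Dap12-deficient cultures. Arrays 1 and 3 lay below the wild-type range and array 2 inside it, for a log2 difference of -0.49 (SE 0.26, 95% interval -1.08 to 0.09, limma adjusted p = 0.538). Scd2, the stearoyl-CoA desaturase of brain and of many other tissues, gave 3238, 3352 and 3726 against 3435, 2850 and 2554, with arrays 2 and 3 below the wild-type range and a difference of -0.23 (SE 0.18, adjusted p = 0.664). Its paralogue Scd1 was at 229 to 527 and 302 to 427, with the wider spread in wild-type, and differed by -0.05 (SE 0.28). Fads2, which acts before Fads1, had levels of 106 ± 6.29 (SD, n = 3) without and 97.2 ± 14.9 (SD, n = 3) with the deficiency, a difference of -0.11 (SE 0.19). The elongase genes Elovl5 and Elovl6 differed by 0.06 (SE 0.19) and -0.01 (SE 0.21), and both were highest on Dap12-deficient array 3, at 2177 and 511.

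Dap12-deficient array 1 was the lowest of the 6 arrays for 4 of 10 fatty acid genes (Srebf1, Fasn, Elovl6 and Fads1) and for 4 of 19 sterol genes, and over all tested genes it was lowest for 26.0%. The mean log2 difference from wild-type over Srebf1, Acly, Acaca and Fasn was -0.60 on Dap12-deficient array 1, -0.02 on array 2 and 0.01 on array 3. Wild-type arrays lay at 0.10, -0.01 and -0.09. For the 3 sterol regulators and transport genes the means were 0.48, 0.15 and -0.39 on Dap12-deficient arrays 1, 2 and 3, with Insig1 setting the first, since the medians were 0.13, 0.16 and -0.34. Over the 6 mevalonate genes the values were -0.30, -0.08 and -0.13, and over the 10 ring genes 0.02, -0.15 and -0.09. The median of array 1 over all tested genes was -0.05. Whether its higher median signal (16.4) has a part in this was not tested. Because these differences were noticed on the same arrays, they are given as description without a test.

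**Figure D3:**
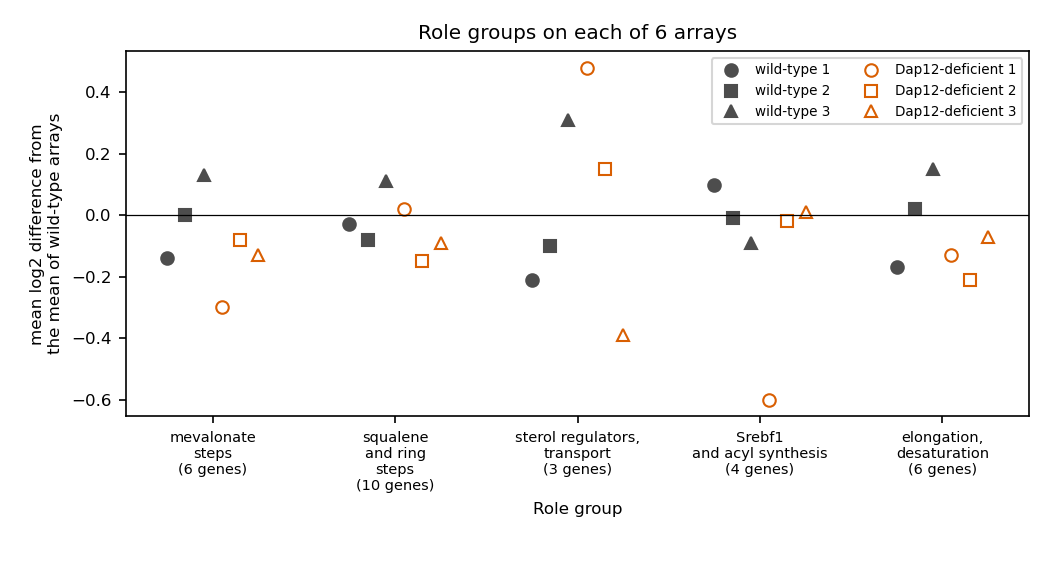
Mean log2 difference from the mean of wild-type arrays (vertical axis) over the members of each role group (horizontal axis), 1 symbol for each of 6 arrays, filled for wild-type and open for Dap12-deficient. Dap12-deficient array 1 (open circle) is at 0.48 for the sterol regulators, where Insig1 sets the mean, and at -0.60 for Srebf1 with the acyl synthesis genes.

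Other genes of the same routes were taken from a list of 47, of which 38 were tested. None passed the limma threshold. At an unadjusted p under 0.05, 4 were lower in Dap12-deficient cultures (background 4.87% of genes) and 0 higher (4.76%), and arrays did not overlap for 7 that were lower (background 8.85%) and 2 that were higher (7.54%). The median log2 difference was -0.07. The lowest was Hacd2, a dehydratase of the elongation cycle, with 666.5, 1152 and 1011 in wild-type against 346, 627 and 508 in Dap12-deficient cultures. Every Dap12-deficient array lay below every wild-type array, with a log2 difference of -0.92 (SE 0.27, 95% interval -1.51 to -0.32, adjusted p = 0.335). Tecr, the reductase that ends the same cycle, differed by -0.52 (SE 0.32), and the elongase gene Elovl1 by -0.49 (SE 0.27). Both were lowest on Dap12-deficient array 1, at 254 and 640, and overlapped between groups. Slc25a1, the mitochondrial citrate carrier that feeds Acly, was at 39.9 on that array and 108 to 165 on the other arrays, with a difference of -0.40 (SE 0.36). In the regulatory part, Mlxipl, which encodes the glucose-responsive factor ChREBP, was at 72.7, 111 and 81.5 against 38.1, 69.3 and 37.0. Its groups did not overlap, and it differed by -0.72 (SE 0.24, adjusted p = 0.365). Thrsp, a factor linked to lipogenesis, was dim at 17.2 to 23.6 and 3.73 to 10.8, and differed by -0.64 (SE 0.19, adjusted p = 0.336).

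Genes of lipoprotein uptake and fatty acid activation completed that list. Scarb1, a receptor for high-density lipoprotein, gave 155, 150.1 and 154 in wild-type against 80.1, 114 and 111 in Dap12-deficient cultures, without overlap. Its difference was -0.54 (SE 0.20, 95% interval -0.97 to -0.10, limma adjusted p = 0.387). Mylip, a ubiquitin ligase, was higher without overlap, at 916 to 1062 and 1177 to 1286, and differed by 0.33 (SE 0.17, adjusted p = 0.523). Lpin1, a phosphatidate phosphatase, differed by 0.41 (SE 0.21) and the acyl-CoA synthetase gene Acsl5 by -0.42 (SE 0.19), also without overlap. Acacb and Scd3 were too dim to be tested. The other genes of the list were not analysed here.

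Probe sets of the same gene did not always order the arrays alike. The 29 members had 68 probe sets, of which 62 were bright enough to be tested and 0 passed. Of 62, 1 had an unadjusted p under 0.05, against 10.7% of all tested probe sets. It was probe set 1429240_at of Stard4, with a log2 difference of 0.56 (SE 0.24, adjusted p = 0.451), where the brightest probe set of Stard4 gave -0.02. Of 19 members with several tested probe sets, 14 had differences of both signs. For Hmgcs1, probe set 1433443_a_at gave 4145, 3021 and 5264 in wild-type against 3835, 2886 and 4088 in Dap12-deficient cultures. On Dap12-deficient array 3 it thus read 4088, near its wild-type mean, while probe set 1433444_at read 1459 there, below its wild-type range of 2288 to 3671. Probe set 1433445_x_at gave 1848 on that array, also below its wild-type range of 2405 to 4278. Idi1 showed the same split, since 1451122_at was lowest of 6 on Dap12-deficient array 3 (1401) and 1423804_a_at highest (1228, against 694.5 to 990.5 in wild-type). For Acly, 1439459_x_at was highest there (1793) and 1451666_at lowest (428, against 591 to 686 in wild-type). A level taken from a single probe set of these 3 genes on Dap12-deficient array 3 therefore depended on the probe set chosen.

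**Figure D4:**
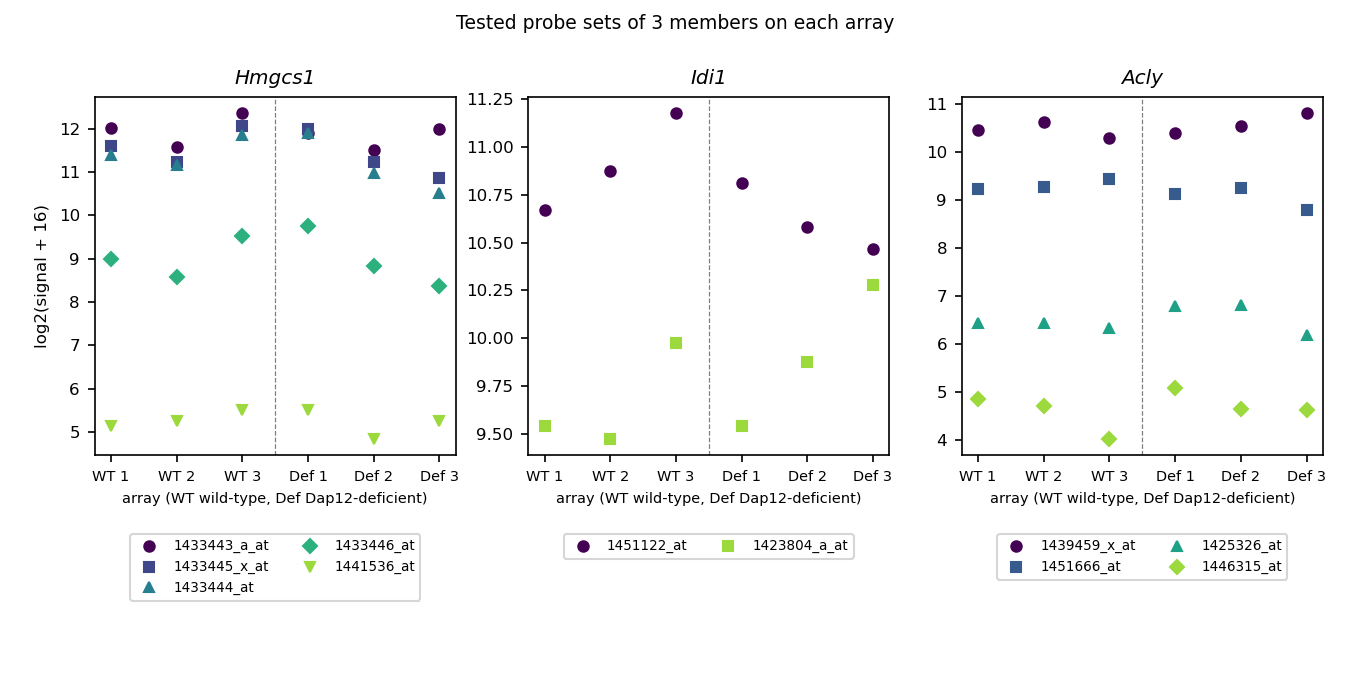
Log2(signal + 16) on the vertical axis for each tested probe set of Hmgcs1 (5), Idi1 (2) and Acly (4) on wild-type arrays (WT 1 to 3) and Dap12-deficient arrays (Def 1 to 3), with 1 symbol per probe set. On Def 3 the probe sets of each gene part ways, as for Idi1 with 1401 by 1451122_at, its lowest, and 1228 by 1423804_a_at, its highest.

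Myelin transcripts varied widely between these cultures, and the synthesis genes were set against them array by array. The myelin score averaged log2(signal + 16) over the myelin protein genes Mag, Mbp, Mobp and Mog and the galactolipid enzyme gene Ugt8a. It was 8.99, 7.98 and 9.21 in wild-type against 8.52, 6.68 and 5.80 in Dap12-deficient cultures. Mbp, the myelin basic protein gene, ran from 3839 to 5535 on wild-type arrays and was 4714, 1142 and 358 on Dap12-deficient arrays. The score of Dap12-deficient array 1 lay in the wild-type range and those of the other two below it. Cnp, a myelin enzyme gene outside the score, did not follow this order, at 827.5 to 1609 in wild-type against 597, 734 and 933. The largest gap between neighbouring scores, 1.30, lay between wild-type array 2 and Dap12-deficient array 2. It set Dap12-deficient arrays 2 and 3 apart from the others. The rule called for separate clusters only if the gap was over 1.71, for scores with a range of 3.42. The 6 arrays were therefore treated as 1 series.

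The relation of single genes to the myelin score could hardly be tested with 6 arrays, so it is given mainly as values. Pearson's r with the myelin score was above 0 for 15 of 19 sterol members (median 0.38), for 5 of 10 fatty acid members (median 0.00) and for 47.0% of all tested genes (median -0.05). After group means were subtracted it was above 0 for 11 of 19 and 4 of 10 members, beside 45.1% of all genes. The member with the lowest p in that comparison was Fdps, of the sterol branch, which ran against the score (r = -0.95, exact permutation p = 0.0278, the smallest allowed, adjusted p = 0.569). By exact permutation over 720 pairings, 0 of 29 members and 0 of 12875 genes (0%) had an adjusted p under 0.05, and the smallest adjusted p of any gene was 0.344. The smallest p that 720 pairings allow is 0.00139, so that 358 genes would have to reach it before any could pass, and 51 did. The count of 0 therefore does not show that no gene followed the score. At an unadjusted p under 0.05 there were 2 of 29 members, Scd2 and Acly, against 8.89% of genes. Scd2 followed the score (r = 0.94, exact permutation p = 0.0111, adjusted p = 0.435), with a Spearman rho of 0.83 (exact permutation p = 0.0583, adjusted p = 0.639). Without Dap12-deficient arrays 2 and 3, the farthest from the median score, r was 0.43, so the relation rests on those arrays. Probe set 1415823_at of Scd2 gave r = 0.74 (exact permutation p = 0.0847), and -0.04 without those arrays. Probe set 1415824_at of Scd2 went the other way (r = -0.49, exact permutation p = 0.303, and rho = -0.37). Acly ran against the score (r = -0.86, exact permutation p = 0.0264, adjusted p = 0.474, and rho = -0.89, exact permutation p = 0.0333, adjusted p = 0.639), and r was -0.87 without those arrays. Its second probe set, 1451666_at, went the other way (r = 0.76, exact permutation p = 0.0556, adjusted p = 0.634, and rho = 0.54).

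Among sterol genes the closest to the score, by the brightest probe sets, were Idi1 and Hsd17b7. Idi1 had r = 0.78 (exact permutation p = 0.0625, adjusted p = 0.588) and rho = 0.77 (exact permutation p = 0.103, adjusted p = 0.706), and r fell to 0.31 without the outer arrays, so that it rests on them. The second probe set of Idi1, 1423804_a_at, went the other way (r = -0.62, exact permutation p = 0.206, adjusted p = 0.79, and rho = -0.20). Without the outer arrays its r was 0.74. Hsd17b7 had r = 0.77 (exact permutation p = 0.0736, adjusted p = 0.606) and rho = 0.83 (exact permutation p = 0.0583, adjusted p = 0.639), and r = 0.96 without the outer arrays. Srebf2 had r = 0.74 (exact permutation p = 0.0903, adjusted p = 0.632) and rho = 0.83 (exact permutation p = 0.0583, adjusted p = 0.639), and r = 0.98 without them. For Hmgcs1, r was 0.46 by the brightest probe set (exact permutation p = 0.344, rho = 0.66). By 1433444_at, which was low on Dap12-deficient array 3, r was 0.90 (exact permutation p = 0.0208, adjusted p = 0.555, rho = 0.83). Of all tested probe sets, 7.82% had an unadjusted p under 0.05. Other dimmer member probe sets under that p ran both ways. Above 0 were 1433445_x_at of Hmgcs1 (r = 0.87) and 1448865_at and 1440057_at of Hsd17b7 (r = 0.86 for each). Below 0 were 1448130_at of Fdft1 (r = -0.84) and 1417403_at of the fatty acid gene Elovl6 (r = -0.80). A further probe set of Hsd17b7, 1417871_at, gave r = 0.21. Over the 6 arrays Insig1 had r = 0.23 (exact permutation p = 0.66, rho = 0.26) and Fasn r = -0.25 (exact permutation p = 0.733, rho = -0.09). After group means were subtracted, r was 0.75 for Insig1 (exact permutation p = 0.194, adjusted p = 0.72, rho = 0.77) and -0.82 for Fasn (exact permutation p = 0.222, adjusted p = 0.737, rho = -0.60).

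**Figure D5:**
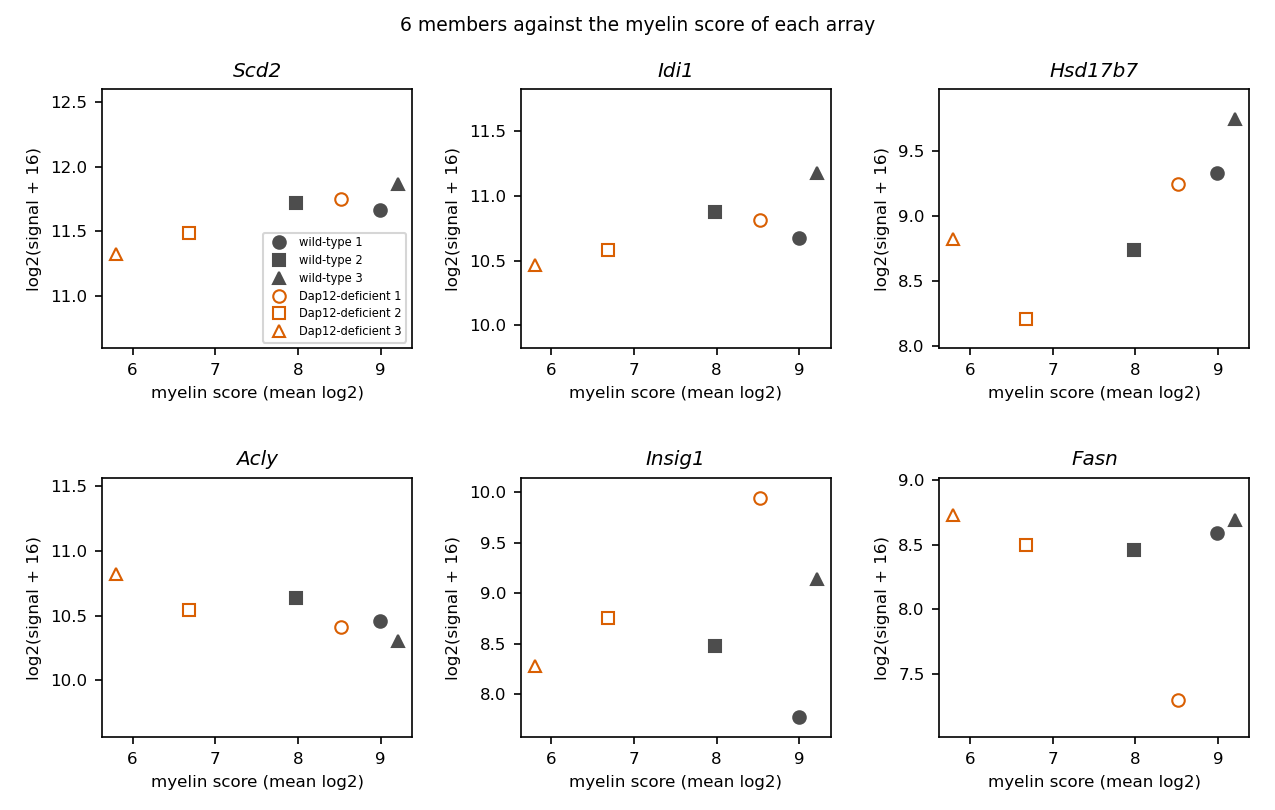
Log2(signal + 16) of Scd2, Idi1, Hsd17b7, Acly, Insig1 and Fasn (vertical axes) against the myelin score of each array (horizontal axes), filled for wild-type and open for Dap12-deficient arrays. Scd2 and Idi1 are lowest on Dap12-deficient arrays 2 and 3, which have scores of 6.68 and 5.80, and Insig1 (966) and Fasn (142) stand apart on Dap12-deficient array 1.

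With the myelin score as a term in the limma fit, the members' differences shifted without any passing. The sterol median moved from -0.06 to 0.01 and the fatty acid median from -0.17 to -0.18. Insig1 then differed by 1.44 (SE 0.44, adjusted p = 0.231) in place of 0.52, and Fasn by -1.12 (SE 0.33, adjusted p = 0.217) in place of -0.40. Fads1 moved to -0.82 (SE 0.34, adjusted p = 0.322) and Srebf1 to -0.69 (SE 0.29, adjusted p = 0.33). In that fit Dap12-deficient array 1, where Insig1 was high and Fasn and Srebf1 were low, is the single array of its group with a score in the wild-type range. Hsd17b7, Scd2 and Srebf2 moved close to 0, to 0.03, 0.01 and 0.05. With a term for Y-linked genes in its place, the sterol median was -0.28 and the fatty acid median 0.45, again with 0 of 29 members past the threshold, and the standard errors were 0.49 to 1.09.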

How the data were processed

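RNA of 6 samples of primary microglial cells was labelled in an amplification of 2 cycles and hybridised to 1 array each, per the labels' protocols. The deposited values are linear intensity values per probe set, made by the authors with GCOS, per the submitters' processing notes; its algorithm, settings and detection calls are not given in the notes used here. The values were used as deposited. Of 45101 probe sets, 64 controls were left out; 34945 had 1 gene symbol, 932 several and 9160 none. Probe sets with a mean signal at or above the 40th percentile (8.51) were tested (27022) on log2(signal + 16), which understates differences of dim genes, with limma 3.58.1 in R 4.3.3 (lmFit, eBayes with trend), two-sided, Benjamini-Hochberg adjusted. Levels of different probe sets were not compared. Arrays carry no depth, and their number limits precision. Correlations with the myelin score were tested by exact permutation, two-sided, adjusted over 12875 genes (over 27022 probe sets for other probe sets); the smallest p that 720 pairings allow is 0.00139. The fit was also run on simulated data, with noise drawn separately for each probe set and array, and its outcome is not reported here. Variation shared by many probe sets of an array was not simulated, so that run says nothing of it.

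Members, lists, tests and alternatives were chosen with earlier results of these data known. Every member is described; those given array by array are members without overlap and the 2 with the largest difference in each role group. Other pathway genes named have an unadjusted p under 0.05 or are the 6 next in size. Sc5d, Stard4 and further probe sets given array by array were chosen after their values were seen. Promoter sequences are RefSeq's, GRCm38.p6. Replicate numbers follow order of deposit and pair nothing. Alternatives are in the closing section. Plots used matplotlib 3.10.9.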

Additional observations from a re-analysis of the deposited data

How the results depend on the processing

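No member and no other pathway gene passed under any of 12 other settings or without any single array. The count of members correlated with the myelin score was 0 under 5 other settings, added after the data were seen, which says nothing of stability, since few arrays allow only large p-values (7153 genes would have to reach the smallest one with group means subtracted). No paired analysis was possible because replicate numbers follow the order of deposit. The count of probe sets past the threshold, 2 as reported, was 5 with a common median, 5 with the myelin term, 11 with the term for Y-linked genes, 1 without probe sets that can bind several transcripts, and 2 to 172 without 1 array, with 172 without Dap12-deficient replicate 2 and 15 without Dap12-deficient replicate 1. The sterol median, -0.06, was -0.31 with a common median, -0.28 with the term for Y-linked genes, 0.03 with the mean of all probe sets, 0.01 with the myelin term, and -0.12 to -0.02 without 1 array. The fatty acid median, -0.17, was -0.40 with a common median, -0.02 with the mean of all probe sets, 0.45 with the term for Y-linked genes, and -0.20 to -0.10 without 1 array. Of 346 member differences recomputed under the 12 settings, 41 had the opposite sign. With a common median these were Mvk (-0.08), Tm7sf2 (-0.03), Nsdhl (-0.20), Sc5d (-0.18), Acly (-0.13) and Elovl5 (-0.19), where the scaling itself lowers all genes by a median change of -0.20. With the mean of all probe sets they were Fdps (0.09), Fdft1 (0.14), Cyp51 (0.07), Msmo1 (0.07), Stard4 (0.22), Scd1 (0.08), Elovl6 (0.18) and Fads2 (0.16). With the myelin term they were Hmgcs1 (0.01), Mvk (-0.40), Sqle (0.16), Lss (0.13), Cyp51 (0.06), Nsdhl (-0.14), Hsd17b7 (0.03), Srebf2 (0.05), Stard4 (0.19), Acly (-0.15), Scd1 (0.20) and Scd2 (0.01). With the term for Y-linked genes they were Mvd (0.14), Fdps (0.68), Fdft1 (0.32), Sc5d (-1.44), Dhcr7 (0.05), Insig1 (-1.40), Srebf1 (0.54), Fasn (1.83), Elovl6 (0.80) and Fads1 (0.49). Without probe sets that can bind several transcripts they were Fdft1 (0.11), Msmo1 (0.25), Acly (-0.27) and Elovl5 (-0.03), and after quantile normalization Elovl6 (0.02). Without 1 array, 26 of 174 had the opposite sign, with ranges of Fdps -0.13 to 0.10, Sc5d -0.25 to 0.23, Fasn -0.68 to 0.04, Elovl6 -0.19 to 0.10, Mvk -0.15 to 0.44, Lss -0.11 to 0.06, Scd1 -0.35 to 0.22, Fads2 -0.18 to 0.00, Sqle -0.21 to 0.04, Nsdhl -0.12 to 0.16, Stard4 -0.10 to 0.14, Elovl5 -0.08 to 0.21, Cyp51 -0.12 to 0.01, Dhcr7 -0.30 to 0.04 and Hmgcs1 -0.39 to 0.01. The causes were not tested. Pmvk (-0.67 to -0.27), Idi1 (-0.60 to -0.03) and Acaca (-0.47 to -0.05) kept their sign under all settings that gave them a value. By itself, the second probe set of Idi1, 1423804_a_at, differed by 0.24. Pmvk and Srebf1 have no value without probe sets that can bind several transcripts. No member changed sign with a pseudocount of 1 or 64, with eBayes fitted without a trend, with the filter lifted or set at the 60th percentile, or with a term for titles that hold a pair of numbers.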
